A study of Mus musculus with 6 samples.

Results

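The Lgr5 locus was examined in ATAC-seq data of mouse colon cancer organoids, as the peaks of a shared peak table that overlap a 250 kb window on chromosome 10 from 114830000 to 115080000 (build mm9). The window holds Lgr5, whose span was taken as about 114887000 to 115025000, and 6 of the 43020 peaks of the table fell in it. Lgr5 is read from the minus strand, so the higher coordinate is its 5′ end. In ATAC-seq a Tn5 transposase inserts sequencing adapters where DNA is not covered by nucleosomes, and the reads over a region increase with its accessibility. It measures neither RNA nor protein.

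Both groups were organoids with the genotype labelled AKP. The naive group (3 libraries) had not been placed in a mouse. The primary tumour group (3 libraries) came from naive organoids placed by colonoscopy in the colon of immunocompetent recipients labelled C57Bl6. Organoids grown from these tumours had been passaged until they held cancer cells alone. Each library is labelled as 1 replicate. The sources used here do not say whether the naive replicates were separate cultures, so p-values measure the spread between these libraries, which may be technical. They give no ages of the animals.

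Lgr5 encodes a leucine-rich repeat receptor of the cell surface that binds R-spondins. R-spondins raise Wnt signalling by removing the ubiquitin ligases Rnf43 and Znrf3, which otherwise clear Wnt receptors. In the intestine Lgr5 marks the stem cells at the crypt base, and the gene is itself a target of Wnt and β-catenin. Loss of Apc activates that pathway without a ligand, and Lgr5 is widely used to mark stem-like cells in intestinal tumours.

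Total counts in peaks were 1185356, 5987545 and 2350525 in naive replicates 1 to 3, and 3594735, 1916819 and 2053202 in primary tumour replicates 1 to 3. The locus held 201, 1158 and 271 of these counts in the naive libraries and 642, 339 and 381 in the primary tumour libraries. Values below are normalized counts (CPM, counts relative to the library total), scaled by TMM, which corrects for differences in library composition. Over the peaks of chromosome 10, the median log2 ratio of a library to the mean of the naive libraries was -0.13 in primary tumour replicate 1 and lay between -0.01 and 0.05 in the other 5 libraries.

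The peaks lay far apart and covered 2.17% of the window. Peaks are named here by the distance of their middle from the 5′ end, counted in the direction of the gene. The 5′ peak, from 115023080 to 115024988, reached to the 5′ end and was the widest at 1908 bp. Inside the gene span lay the +26 kb peak (114998243 to 114999034), the +82 kb peak (114942146 to 114943571) and the +103 kb peak (114921451 to 114922133). The last 2 members lay outside the gene span. They were the +192 kb peak (114833027 to 114833416), beyond the 3′ end, and the -36 kb peak (115060551 to 115060789), upstream of the gene. The longest stretch without a peak was 88.0 kb, between the +192 kb and +103 kb peaks.

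In RefSeq gene order of another build (GRCm38.p6), Zfc3h1 is the next gene beyond the 3′ end, A930009A15Rik lies inside Lgr5, and the pseudogene Gm8960 and then Tspan8 follow on the 5′ side. Exons and introns could not be assigned to the peaks from that build, nor could peaks be assigned to A930009A15Rik. A promoter sequence of Lgr5 was not used here.

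**Figure D1:**
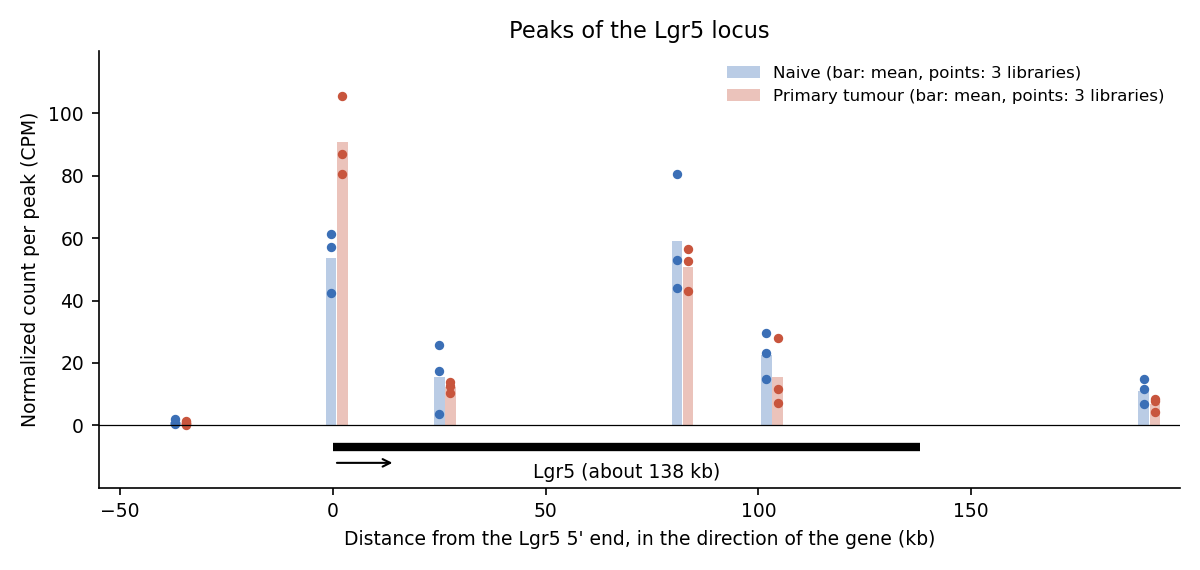
Normalized count (CPM) of each of the 6 peaks by distance from the Lgr5 5′ end in kb, with the gene span as a black bar and an arrow in the direction of the gene. Bars are group means and points are the 3 libraries of each group. The primary tumour points lie above all naive points at the 5′ peak, and the groups overlap at the other 5 peaks.

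The 5′ peak was more accessible in the organoids from primary tumours, by 1.69-fold, and it was the sole member called in either direction. It had 57.2, 61.3 and 42.4 CPM in naive replicates 1, 2 and 3, and 80.5, 105 and 86.8 CPM in primary tumour replicates 1, 2 and 3. Every primary tumour value was higher than the highest naive value, so the groups did not overlap. The group values were 53.6 ± 9.93 and 90.9 ± 12.9 CPM (SD, n = 3 each). The log2 fold change was 0.75 (SE 0.22, 95% interval 0.31 to 1.20, adjusted p = 0.0198, edgeR quasi-likelihood test with Benjamini-Hochberg adjustment over 36179 tested peaks).

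Against all tested peaks this was a modest change. Of the 36179, 14.4% were called in either direction, 8.04% higher and 6.40% lower in primary tumour organoids, so 1 call among the 5 tested members is near the background. Without naive replicate 2, the deepest library, 5.82% of 38040 peaks were called, and the 5′ peak was among them (log2 fold change 0.88, adjusted p = 0.0290, edgeR). Among the peaks called higher the median log2 fold change was 1.66, well above that of the 5′ peak. The 5′ peak stood at the 82.7th percentile of fold changes of tested peaks. Groups were separated upwards, as here, in 15.6% of tested peaks and downwards in 15.1%.

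The call was lost when either of a pair of libraries was left out. Without naive replicate 3, which had the lowest naive value, the log2 fold change was 0.60 (SE 0.25, adjusted p = 0.128, edgeR). Without primary tumour replicate 2, which had the highest value, it was 0.63 (SE 0.25, adjusted p = 0.112, edgeR). Calls also became fewer over all tested peaks in these refits, at 10.2% and 9.76%, against 14.4% with all libraries.

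Counting error was set beside these values. From 69, 339 and 101 naive reads, exact Poisson 95% intervals ran from 44.5 to 72.4, 55.0 to 68.2 and 34.6 to 51.6 CPM. From 290, 203 and 186 reads in the primary tumour libraries they ran from 71.5 to 90.3, 91.4 to 121 and 74.8 to 100.3 CPM. The intervals of naive replicate 1 and primary tumour replicate 1 met at their edges, and no other naive interval reached a primary tumour interval. Such intervals cover counting error alone, and they are too narrow where reads amplified by PCR are counted as independent molecules.

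None of the other 4 tested members passed the test, and all 4 had log2 fold changes below 0. Over the 5 tested members the median log2 fold change was -0.37, against -0.0047 over all tested peaks, of which 50.3% were below 0. The -36 kb peak did not pass the filter on low counts and was not tested.

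The +82 kb peak was the strongest after the 5′ peak and did not differ detectably between the groups. It had 53.1, 80.5 and 44.1 CPM in naive replicates 1 to 3 and 52.7, 43.1 and 56.5 CPM in primary tumour replicates 1 to 3. Naive replicate 2 was the highest, and the other naive libraries lay among the primary tumour libraries. The log2 fold change was -0.24 (SE 0.24, 95% interval -0.74 to 0.26, adjusted p = 0.579, edgeR), an interval that reaches from 0.598-fold to 1.20-fold. Without naive replicate 2 it was 0.071 (adjusted p = 0.921, edgeR).

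At the +103 kb peak the primary tumour libraries differed among themselves. Each line has 1 library, so a difference between lines cannot be told from one between libraries. Naive replicates 1 to 3 had 23.2, 29.7 and 14.7 CPM. Primary tumour replicate 1 had 28.0 CPM from 101 reads, while replicates 2 and 3 had 7.27 and 11.7 CPM from 14 and 25 reads. Primary tumour replicate 1 therefore lay within the naive range, and primary tumour replicates 2 and 3 below it. With all libraries the log2 fold change was -0.49 (SE 0.41, 95% interval -1.34 to 0.36, adjusted p = 0.489, edgeR). Without primary tumour replicate 1 the peak was called (edgeR adjusted p = 0.0349), as were 14.5% of all tested peaks. The log2 difference of the +103 kb peak was then -1.26 (SE 0.43). Other libraries moved it towards 0, to -0.17 without primary tumour replicate 2, -0.20 without naive replicate 2 and -0.29 without primary tumour replicate 3 (adjusted p = 0.861, 0.874 and 0.761, edgeR). This peak also had the highest authors' score of the 6, 96.6, at the 85.8th percentile of the table, against 47.8 for the 5′ peak.

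The +26 kb peak showed its widest spread among naive libraries. Naive replicates 1 to 3 had 17.4, 25.7 and 3.78 CPM, the last from 9 reads, and primary tumour replicates 1 to 3 had 12.5, 10.4 and 14.0 CPM. The 3 primary tumour values lay between the lowest and the middle naive value. The log2 fold change was -0.37 (SE 0.48, 95% interval -1.36 to 0.61, adjusted p = 0.680, edgeR). It was 0.32 without naive replicate 2 and -0.84 without naive replicate 3 (adjusted p = 0.813 and 0.221, edgeR).

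The 2 members outside the gene span were weaker. The +192 kb peak had 14.9, 11.8 and 6.72 CPM in naive replicates 1 to 3 and 4.44, 8.31 and 7.94 CPM in primary tumour replicates 1 to 3. The groups overlapped through naive replicate 3. The log2 fold change was -0.69 (SE 0.49, 95% interval -1.70 to 0.31, adjusted p = 0.393, edgeR). It was -0.42 without primary tumour replicate 1 (adjusted p = 0.660, edgeR) and -0.96 without naive replicate 3 (0.280). The -36 kb peak held 1, 3 and 5 reads in the naive libraries and 0, 3 and 2 in the primary tumour libraries. For primary tumour replicate 1 a count of 0 allows up to 0.832 CPM (3 counts), so no difference was detectable at this depth.

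**Figure D2:**
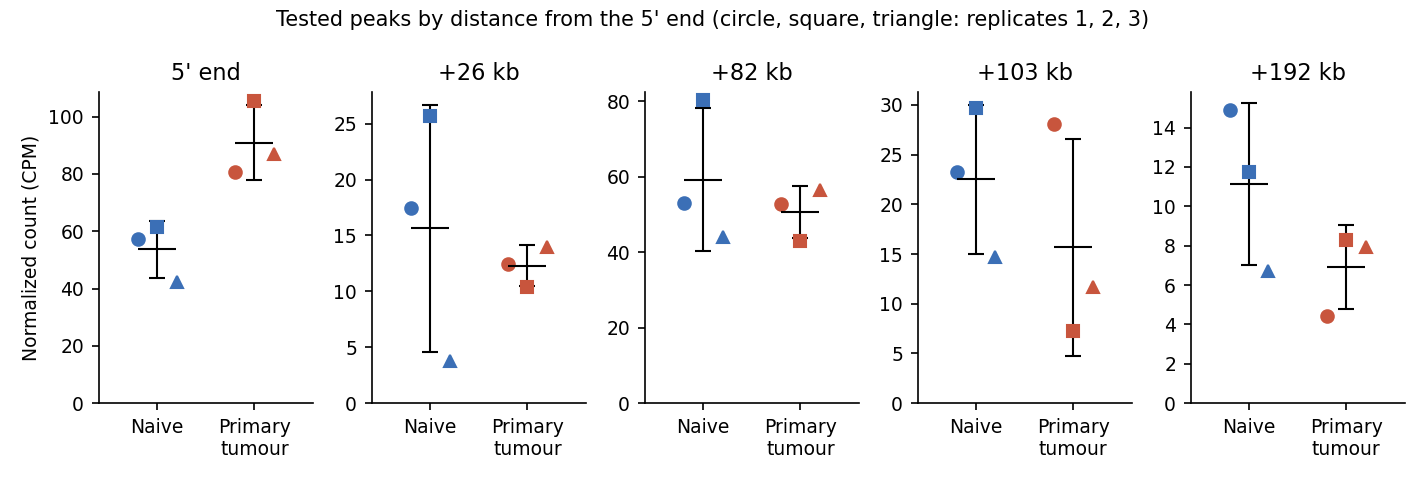
Normalized count (CPM) of the 5 tested peaks in each library, by group, with a panel for each distance from the 5′ end and its own vertical scale starting at 0. Circles, squares and triangles are replicates 1, 2 and 3, and bars are mean ± SD. At the 5′ peak the groups do not overlap, and at +103 kb primary tumour replicate 1 (28.0 CPM) lies apart from primary tumour replicates 2 and 3.

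At the lower edge of the window a much stronger peak lay just outside. That peak, from 114821261 to 114822888, had 114 ± 16.2 CPM in naive and 111 ± 7.68 CPM in primary tumour organoids (SD, n = 3 each), against 11.1 ± 4.13 and 6.89 ± 2.13 CPM at the +192 kb peak just inside. The peak just outside the upper edge, from 115153381 to 115153594, had 0.798 ± 0.0644 and 1.71 ± 2.57 CPM, against 1.16 ± 0.829 and 0.830 ± 0.784 CPM at the -36 kb peak just inside. This upper pair was weak, with a few reads per library at the -36 kb peak, and differed by less than the larger SD. At the peak just outside, the SD in primary tumour organoids was larger than the mean, so those libraries were unequal.

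Per kb of peak width, the order of the members differed between the groups in its first places. In naive organoids the +82 kb peak was densest with 41.6 ± 13.3 CPM per kb, followed by the +103 kb peak with 33.0 ± 11.0, the +192 kb peak with 28.6 ± 10.6 and the 5′ peak with 28.1 ± 5.20 (SD, n = 3). The +26 kb peak followed with 19.8 ± 14.0 CPM per kb and the -36 kb peak with 4.86 ± 3.48. Neighbours in this naive order differed by less than the larger of their SDs except for the last step. In primary tumour organoids the 5′ peak came first with 47.6 ± 6.78 CPM per kb, then the +82 kb peak with 35.6 ± 4.85 and the +103 kb peak with 23.0 ± 16.0. The +192 kb peak had 17.7 ± 5.49, the +26 kb peak 15.5 ± 2.30 and the -36 kb peak 3.49 ± 3.29. Here the first and second places differed by more than either SD, and so did the last pair, while the neighbours between them did not. Each SD is a spread between libraries. Densities were not compared within the same library, so these SDs do not show how steady the order was from library to library.

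Summed over all 6 peaks, the locus did not differ detectably between the groups. The sum was 167, 209 and 114 CPM in naive replicates 1 to 3 and 178, 176 and 178 CPM in primary tumour replicates 1 to 3. The 3 primary tumour libraries were nearly equal, and the naive libraries lay on both sides of them. Exact Poisson 95% intervals of the primary tumour sums were 164.6 to 192.5, 157.8 to 195.8 and 160.5 to 196.7 CPM. These intervals were far wider than the gaps between the 3 sums, so the near equality does not show that the lines are uniform. The group values were 163 ± 47.8 and 177 ± 1.16 CPM (SD, n = 3 each). In an edgeR fit over 6494 tested windows of the same width, the log2 fold change was 0.11 (SE 0.18, 95% interval -0.27 to 0.49, adjusted p = 0.756), which reaches from 0.828-fold to 1.41-fold. In that fit 16.1% of windows were called. A 2-sided exact permutation test of the log2 sums gave p = 0.7, where 3 against 3 cannot go below 0.1.

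The spread among naive sums was wider than counting error if each read is taken as an independent molecule. Exact Poisson 95% intervals were 144 to 191, 198 to 222 and 101 to 128 CPM in naive replicates 1 to 3, which do not overlap each other. Naive replicate 3 was the lowest naive library at all 5 tested members, and naive replicate 2 the highest at 4 of them. Without naive replicate 3 the log2 fold change of the sum was -0.098, and without naive replicate 2 it was 0.35 (adjusted p = 0.834 and 0.324, edgeR).

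The split of the counts between the 5′ peak and the rest of the locus differed between the groups in these libraries. The 5′ peak held 34.3%, 29.3% and 37.3% of the locus counts in naive replicates 1 to 3, and 45.2%, 59.9% and 48.8% in primary tumour replicates 1 to 3. Every primary tumour share was above every naive share, and how often this occurs in other windows was not computed. The exact binomial (Clopper-Pearson) 95% intervals were 27.8% to 41.3%, 26.7% to 32.0% and 31.5% to 43.3% in the naive libraries, and 41.3% to 49.1%, 54.4% to 65.1% and 43.7% to 54.0% in the primary tumour libraries. The interval of primary tumour replicate 1 thus touched those of naive replicates 1 and 3. The mean share was 33.6 ± 4.05% in naive and 51.3 ± 7.66% in primary tumour organoids (SD, n = 3 each). The difference of 17.7 percentage points had a 2-sided exact permutation p of 0.1, the smallest that 3 against 3 can give.

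The other 5 peaks together had 109, 148 and 71.4 CPM in naive replicates 1 to 3 and 97.7, 70.6 and 91.0 CPM in primary tumour replicates 1 to 3. Naive replicate 3 was as low as primary tumour replicate 2, and the groups overlapped. This sum had a log2 difference of -0.35 (SE 0.23, edgeR adjusted p = 0.335), opposite in sign to that of the 5′ peak. The ratio of reads in the 5′ peak to reads in the +82 kb peak, which needs no library scaling, was 1.08, 0.762 and 0.962 in the naive libraries. In the primary tumour libraries it was 1.53, 2.45 and 1.54. The groups did not overlap (exact permutation p = 0.1, 2-sided). Both the share and this ratio contain the 5′ peak, so neither is a result separate from the change of that peak. How often such ratios separate the groups elsewhere was not computed.

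**Figure D3:**
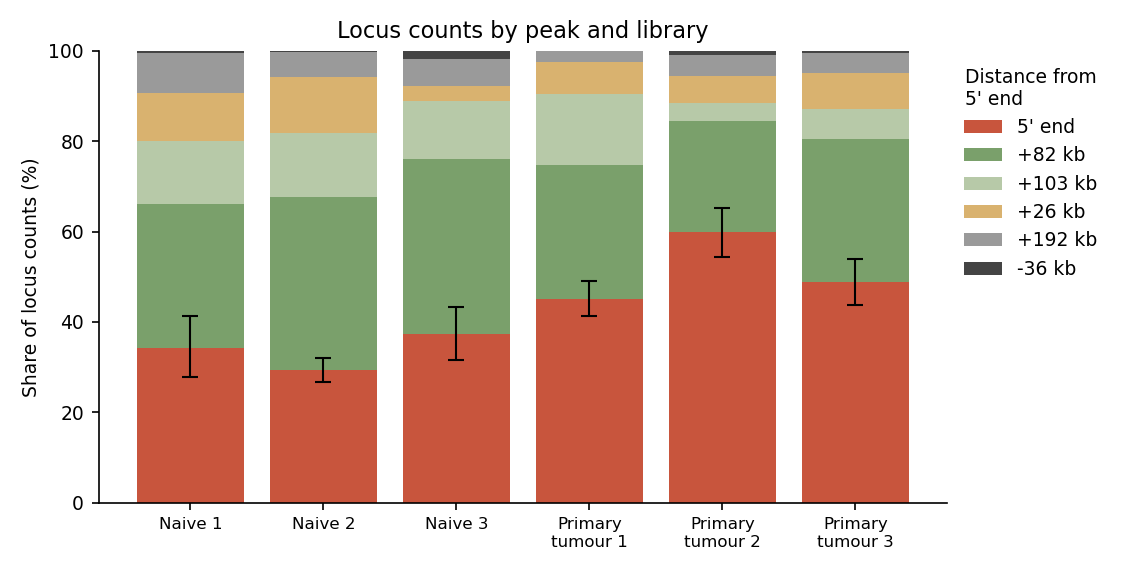
Share of the locus counts (%) in each of the 6 peaks, 1 bar for each library, with the 5′ peak at the bottom and its exact binomial 95% interval. The 5′ peak takes 29.3% to 37.3% in naive libraries and 45.2% to 59.9% in primary tumour libraries.

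A test of each peak against the summed change of its own window, added after the values were seen, did not reach the threshold at the 5′ peak. The 5′ peak changed by 0.63 (log2) more than its window, with an adjusted p of 0.159 (edgeR diffSpliceDGE, adjusted over 34766 peaks, of which 7.47% were called). The other 4 tested members lay between -0.81 and -0.36 relative to the window, with adjusted p-values of 0.474 to 0.656 in the same test. This test takes the change of the window as known, without error. The window includes the peak itself, so at the 5′ peak the value is not a contrast with the rest of the locus alone.

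The neighbouring windows of the same width, each sharing an edge with the locus, were compared to place the locus in its surroundings. The window at lower coordinates (9 peaks) had 248 ± 20.4 CPM in naive and 217 ± 23.7 CPM in primary tumour organoids, and that at higher coordinates (7 peaks) had 187 ± 30.2 and 145 ± 19.4 CPM (SD, n = 3 each). Their log2 fold changes were -0.19 (SE 0.14, adjusted p = 0.412) and -0.37 (SE 0.16, adjusted p = 0.133, edgeR), and neither was called. The difference between the locus and its neighbours was not tested. Of all 7218 windows with a peak, the locus stood at the 71.0th percentile of summed CPM, with 6 peaks against a median of 4. The 5′ peak stood at the 93.9th percentile of mean CPM over all peaks and the +82 kb peak at the 89.6th, and both held at least 20 reads in every library.

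**Figure D4:**
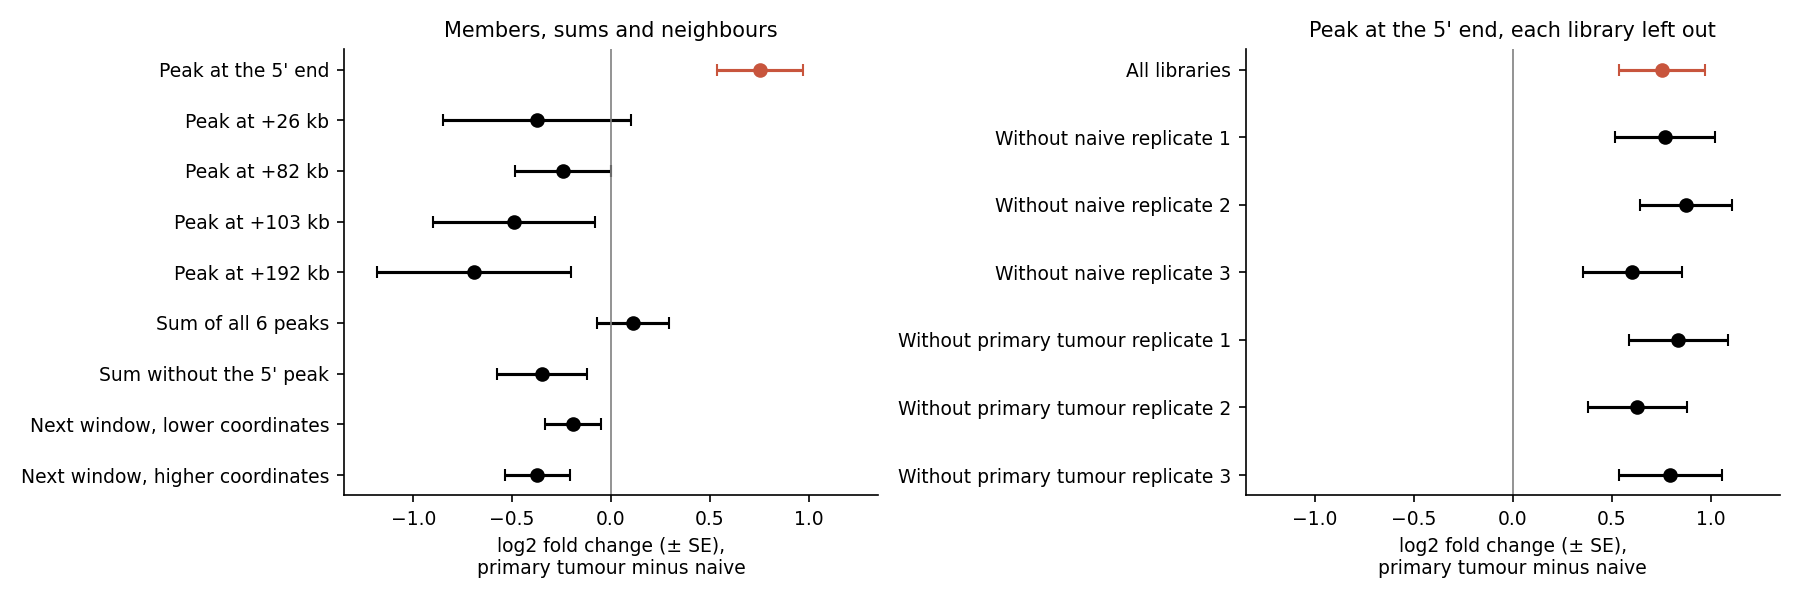
Log2 fold changes (primary tumour minus naive, ± SE) of the 5 tested peaks, the sum of the locus, the sum without the 5′ peak and the neighbouring windows (left), and of the 5′ peak with each library left out (right). The 5′ peak lies at 0.75, the 4 other peaks lie below 0, and the left-out values of the 5′ peak run from 0.60 to 0.88.

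The windows whose sums followed the locus most closely over the 6 libraries were found among 3320 windows with at least 50% of its mean signal. As a description over 6 points that share library scaling, Pearson's r of log2(CPM + 1) was 0.976 for a window on chromosome 16 from 29830000 to 30080000 with 25 peaks. It was 0.950 on chromosome 18 from 69080000 to 69330000, 0.937 and 0.935 on chromosome 11 from 95080000 to 95330000 and from 32830000 to 33080000, and 0.932 on chromosome 1 from 16580000 to 16830000. Chosen for likeness over these same libraries, each had its lowest value in naive replicate 3 and its highest in naive replicate 2, as the locus did. On chromosome 16 these were 799.5 and 1128 CPM, with primary tumour libraries between 1051 and 1085 CPM.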

How the data were processed

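ATAC-seq was done on 6 libraries, grouped and numbered from the sample titles. Per the labels' protocols, each library came from 50000 cells treated with transposase (30 min, 37 °C) and was read from both fragment ends, 75 bases each. The authors deposited 1 table of raw read counts per peak, over peaks named for all samples together. The submitters' processing notes name Bowtie, Picard, SAMtools, MACS2, bedtools and build mm9. Sources used here do not give the shift of read ends or the treatment of duplicates. Duplicates left in would inflate counts. A shift of a few bases would matter little for peaks of this width. The authors' score of a peak was used to describe it only.

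The 6 members were chosen by coordinates. The members, tests and lists were chosen with earlier results of these data known. Counts were fitted in R 4.3.3 with edgeR 4.0.16 (filterByExpr, TMM, robust quasi-likelihood, group as the sole term). The threshold was an adjusted p of 0.05. SE was the log2 fold change over the square root of F. For the locus sum, counts were summed over windows tiling the genome on a grid that holds the locus window. Single values were tested by exact permutation (SciPy 1.17.1). Alternatives were other scalings, filters, DESeq2 1.42.0, offsets, bounds, a replicate block and each library left out. By rule, the 5′ peak, the 3 strongest peaks, every called peak and the 5 most similar windows were to be described. Here the first 3 groups come to 3 peaks, and the other members are given too. Other Wnt pathway genes and cell type markers were not analysed here, since no gene annotation of mm9 was used.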

Additional observations from a re-analysis of the deposited data

How the results depend on the processing

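With all libraries kept, the 5′ peak was called under every alternative run: other scalings, filters, the DESeq2 Wald test, trended and chromosome offsets, and the replicate block. Its log2 fold change was 0.73 to 0.93 there. With 1 library left out it was 0.60 to 0.88, and between 0 and 2 members were called, against 1. The 0 came without naive replicate 3 (unadjusted p = 0.0233 for the 5′ peak, edgeR) and without primary tumour replicate 2 (0.0172). The 2 came without primary tumour replicate 1, which added the +103 kb peak (-1.26). Of all tested peaks, 10.2%, 9.76% and 14.5% were called in these refits, in that order, against 14.4% with all libraries. The cause was not tested. The sum of the locus, not called in any of 19 alternatives, ran from -0.098 to 0.35 with 1 library left out. It was -0.35 without the 5′ peak, which was also the strongest, and -0.31 for the gene span without it, since the tested peaks left were all below 0. These sums without the 5′ peak were added after the values were seen, but the planned sum without the strongest peak is the same as the first. With the gene span as bounds the sum was 0.16, and with 50 kb added on each side 0.0017. Without naive replicate 2 the +82 kb and +26 kb peaks changed sign, to 0.071 and 0.32. With 1 library left out they ran from -0.42 to 0.071 and from -0.84 to 0.32, the +103 kb peak from -1.26 to -0.17 and the +192 kb peak from -0.96 to -0.42. The share of the 5′ peak differed by 13.4 to 20.7 percentage points with 1 library left out, and the change relative to its window was 0.51 to 0.72.

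Naive and primary tumour replicates share numbers, but libraries of the same number deviated from their group means with correlations of -0.24, -0.107 and 0.0045, so the numbers were not taken to pair them. With the replicate block the 5′ peak had a log2 fold change of 0.77 (adjusted p = 0.0288, edgeR), the sum 0.16 and the change relative to the window 0.61. The block gave 3584 called peaks in the whole table, and leaving out naive replicate 2 gave 2215, against 5224. The -36 kb peak was tested in 1 alternative alone, without a filter. The stricter filter (20 counts in 3 libraries) removed the +192 kb peak too. Depth limits the +26 kb and +192 kb peaks, which had 9 to 30 reads in most libraries.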
